A study of Mus musculus with 12 samples.

Results

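The data cover the ileum of 3 mice given STP1002 at 5 mg/kg and 3 mice given DMSO, read over all 780 genes of a targeted panel. These 6 libraries are those titled with that dose or as control, out of 12 in the series, and every gene was kept while the control probes were set aside. The panel is the nCounter Mouse Tumor Signaling 360 panel, which counts barcoded probes on RNA without amplification. STP1002 at 5 mg/kg, STP1002 at 10 mg/kg and DMSO were given by mouth once daily for 28 days, and G007-LK was given at 30 mg/kg by intraperitoneal injection, 2 doses a day, with 3 mice a group chosen at random out of 8. Strain, sex, age and genotype are not given in the labels, and the mice are numbered 1 to 3 within a group as their titles number them.

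STP1002 and G007-LK inhibit tankyrases, enzymes that attach poly(ADP-ribose) to axin and so mark it for breakdown. Axin is the scaffold of the complex that phosphorylates beta-catenin and sends it to the proteasome, and inhibiting tankyrase is known to stabilise axin and to lower Wnt signalling. In the intestine Wnt signalling maintains the stem cells of the crypt. The ileum also holds Peyer's patches and isolated follicles, in which B cells are abundant, so a piece of ileal wall can hold more or less lymphoid tissue.

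Depth differed between the 6 libraries. Whole probe counts recovered from the signal summed to 67398, 62239 and 44180 in STP1002 5 mg/kg mice 1 to 3, against 293538, 43922 and 31901 in control mice 1 to 3, a range of 9.20-fold. Background, set per library from its negative control probes, was 14.2, 22.0 and 35.2 in the treated libraries and 4.33, 24.6 and 29.3 in the control libraries on the scale of the deposited signal. Of the 780 genes, 599 were above it in all 6 libraries and 27 in none. Control mouse 1, the deepest library, had the lowest control value for 65.3% of genes, which widens the control range downwards. The epithelial list below, with Epcam and Cdh1 among its members, had 10 of 13 genes above background in all 6 libraries.

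No gene passed the test between STP1002 at 5 mg/kg and DMSO. Limma called 0 of 780 genes (0.0%) at an adjusted p under 0.05, and the smallest adjusted p by limma was 0.998, the value that every gene named here has. At an unadjusted p under 0.05 there were 18 genes (2.31%), of which 17 were higher (2.18%) and 1 was lower (0.128%). The groups did not overlap for 37 genes (4.74%), 22 with all treated mice above all controls (2.82%) and 15 with all below (1.92%). The fold change was above 0 for 63.6% of genes, and for 48.6% after each library was rescaled on its median ratio to the gene means. The median log2 fold change of the panel was 0.12, and -0.01 after that rescaling. It was -0.19 without control mouse 1, which is the panel value beside each list median given below without that mouse. A gene's log2 fold change had a median SE of 0.67, and its 95% interval reached a median of 1.42 to each side before any adjustment. Log2 differences of up to 2.80 did not pass the adjusted test with 3 mice a group.

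**Figure D1:**
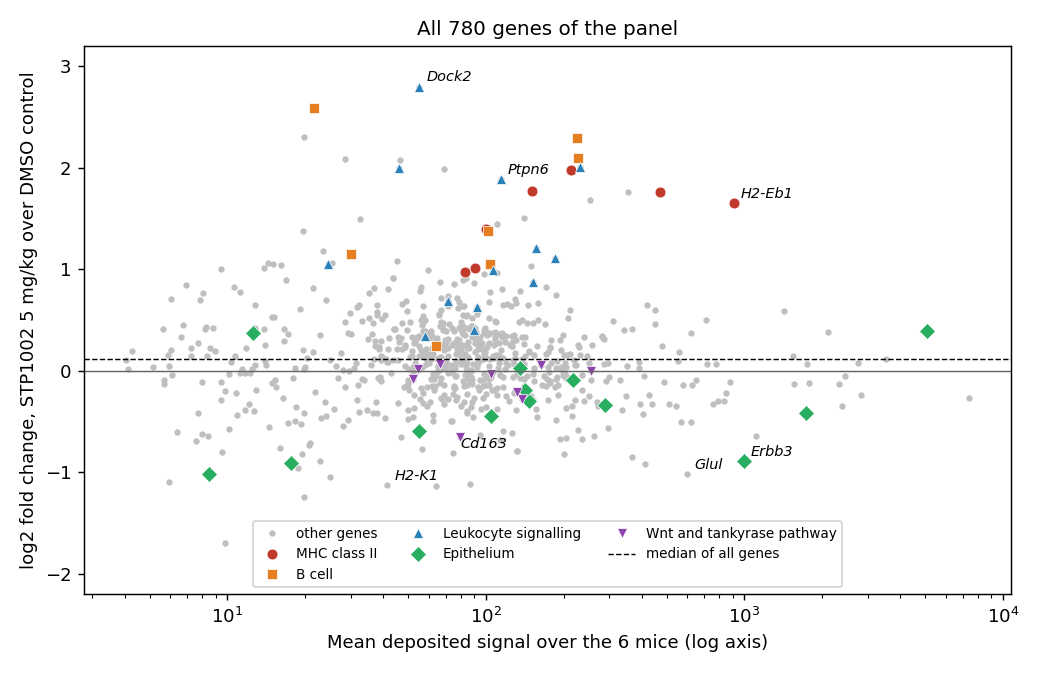
Log2 fold change of STP1002 5 mg/kg over DMSO control against the mean deposited signal of the 6 mice (log axis), 1 point per gene of the panel, with 5 gene lists marked by shape and colour and the panel median of 0.12 as a dashed line. MHC class II and B cell genes lie above the median, most epithelial genes below it, and Wnt pathway genes close to it or below.

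The 17 genes that were higher at an unadjusted p under 0.05 included Ptpn6, H2-Eb1, Blk, H2-Aa, Ncf1, Grap2, H2-Ab1, Vav1, H2-Ob, Cd22, Il2rg, Dock2, Traf1, Ptprc and Syk. Of the 17, 14 belong to 5 lists of leukocyte genes that hold 87 of the 780 genes of the panel. The 17 were picked by p in these same mice, and the lists were chosen with earlier results of these data known. That count is therefore a description and not a test. Replicate 3 was the lowest of the treated mice in 17 of the 17 and replicate 1 the highest in 16, against 25.3% and 20.4% of all genes. Mouse 3 lay within or below the control range in 9 of the 17. The values that follow are thus those of treated mice that differ from each other as well as from the controls.

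The 7 MHC class II genes on the panel were all higher with STP1002 at 5 mg/kg, where 63.6% of all genes were. Class II molecules present peptides from outside the cell to CD4+ T cells and are made by B cells, dendritic cells and macrophages. H2-Eb1, the beta chain of the I-E molecule, had a signal of 1734, 1829 and 639.9 in STP1002 5 mg/kg mice 1 to 3, against 300.0, 412.2 and 528.6 in control mice 1 to 3. Every treated mouse was above every control mouse, but mouse 3 by little. The log2 fold change was 1.65 ± 0.53 (SE), with a 95% interval of 0.54 to 2.76.

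H2-Aa, the alpha chain of the I-A molecule, had 343.9, 318.4 and 70.7 in treated mice and 52.9, 53.9 and 66.6 in control mice. The groups again did not overlap, and mouse 3 stood close to the highest control (log2 fold change 1.77 ± 0.59 SE). Its partner chain H2-Ab1 had 1309, 833.5 and 171.1 in treated mice against 185.9, 113.2 and 223.2 in control mice. Here mouse 3 was inside the control range, so the groups overlapped, at a log2 fold change of 1.77 ± 0.64 SE.

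In the genes that load peptide on class II molecules treated mouse 3 was again the lowest. H2-Ob, a chain of the modulator H2-O of B cells, had 671.1, 295.1 and 89.3 in treated mice and 30.8, 97.0 and 94.0 in control mice (log2 fold change 1.97 ± 0.75 SE). H2-DMb1, a chain of the peptide exchange factor H2-DM, had 220.0, 176.7 and 48.4 against 23.3, 67.4 and 62.7 in control mice (1.40 ± 0.79 SE). In both genes mice 1 and 2 were above all controls and mouse 3 was among them. H2-DMa and H2-DMb2 had 0.98 ± 0.69 and 1.01 ± 0.96 (SE), likewise with mouse 3 within the control range. H2-DMb1 and H2-DMb2 are close copies of each other, and how far a probe for one also counts the other was not tested.

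Summed over the 7 genes, class II signal was 4564, 3689 and 1153 in treated mice 1 to 3, against 631.2, 894.4 and 1171 in control mice. Mouse 3 was just under the highest control in this sum. The median log2 fold change of the list was 1.65, against 0.12 for all genes, and it was 2.14 without treated mouse 3 and 1.44 without control mouse 1. A larger share of cells that carry these RNAs and more RNA in each such cell cannot be told apart in bulk tissue. Limma called 0 of the 7 genes.

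Class II promoters are known to share a set of short elements near the start of the gene. The innermost of these holds an inverted CCAAT box. The promoters are shown as background, and their part in the values was not tested. Treated mouse 3 was the lowest treated mouse in all 7 genes. It was also the lowest in 12 of 13 signalling genes of leukocytes and in 6 of 7 B cell genes. From the RefSeq promoter table, build GRCm38.p6, the 100 bases before the start are given 5′ to 3′ on the gene's own strand for the 5 genes that hold the letters TGATTGG, in capitals:
H2-Eb1: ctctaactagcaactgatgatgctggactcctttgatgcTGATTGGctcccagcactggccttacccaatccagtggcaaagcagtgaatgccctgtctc
H2-Aa: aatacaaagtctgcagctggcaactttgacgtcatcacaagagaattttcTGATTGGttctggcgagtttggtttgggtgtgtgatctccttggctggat
H2-Ob: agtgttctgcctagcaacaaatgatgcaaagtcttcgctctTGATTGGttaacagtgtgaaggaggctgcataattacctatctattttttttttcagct
H2-DMb1: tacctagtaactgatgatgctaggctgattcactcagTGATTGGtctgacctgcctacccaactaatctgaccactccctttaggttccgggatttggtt
H2-DMb2: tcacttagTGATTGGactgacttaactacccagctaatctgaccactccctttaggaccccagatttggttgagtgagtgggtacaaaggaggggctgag

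These windows lie at chr17:34305767-34305866 (plus strand) for H2-Eb1, chr17:34287824-34287923 (minus strand) for H2-Aa, chr17:34238805-34238904 (plus) for H2-Ob, chr17:34153091-34153190 (plus) for H2-DMb1 and chr17:34145149-34145248 (plus) for H2-DMb2. The first base of the letters is at -61, -50, -59, -63 and -92 from the start in that order of genes. Both strands were searched, and 2 starts of H2-DMa held no match, which says only that these letters are not in that window. H2-Ab1 was measured and is named only. The letters are in 4.58% of 32851 promoters of the table and in 8.27% of 701 promoters of panel genes. The letters and the window were chosen after 9 letter strings had been searched in these promoters, so the count of 5 genes is a description and not a test. A match is not a bound site.

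B cell genes were higher as well, in 7 of 7 members, with limma calling 0. Cd22, an inhibitory receptor of B cells, had 726.5, 395.1 and 55.8 in treated mice and 31.7, 83.5 and 74.4 in control mice. Mouse 3 lay inside the control range and the groups overlapped, at 2.10 ± 0.81 SE. Blk, a Src family kinase of B cells, exceeded background in 2 of 3 treated and 0 of 3 control libraries. With the control values set to the background of their libraries, the treated values were on average (log scale) 1.88-fold higher. That is not a lower bound: with all values raised to the highest library background, the log2 fold change was 0.26. Spib, a transcription factor needed for B cell receptor responses, was the 1 member whose groups did not overlap: 179.3, 150.0 and 93.0 in treated mice, against 18.1, 86.2 and 86.1 in control mice (1.38 ± 0.70 SE).

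Ms4a1, which encodes CD20, had a log2 fold change of 1.05 ± 0.81 SE, and the kinase Btk 1.15 ± 0.93 SE. Without control mouse 1 these were 0.21 and 0.64. Tnfrsf17, the BCMA receptor of plasma cells, was the lowest of the list with 66.6, 55.0 and 67.0 in treated mice against 18.5, 99.7 and 78.3 in control mice. All 3 treated mice were within the control range, and the fold change of 0.24 ± 1.00 SE turned to -0.49 without control mouse 1. The median of the list was 1.38, and it was 2.44 without treated mouse 3 and 0.65, with 6 of 7 genes higher, without control mouse 1.

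**Figure D2:**
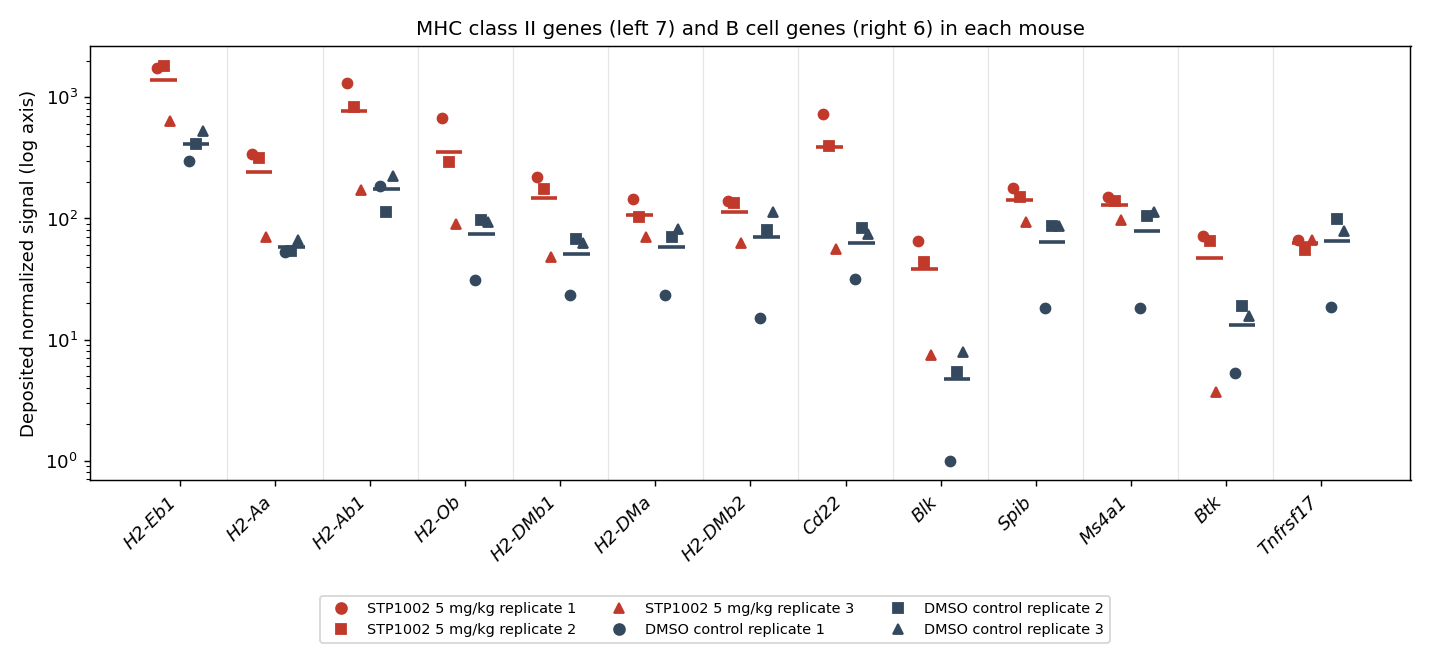
Deposited normalized signal (log axis) of 7 MHC class II genes and 6 B cell genes in each mouse, STP1002 5 mg/kg in red left of DMSO control in blue, with circles, squares and triangles for mice 1, 2 and 3 and a line at the arithmetic mean of the 3 mice. Treated mice 1 and 2 stand above the controls in all genes shown but Tnfrsf17, and treated mouse 3 stands at the level of the controls in most.

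All 13 signalling genes that most leukocytes share were higher, at a median log2 fold change of 1.05. Ptpn6, the phosphatase SHP-1, which restrains antigen receptor signalling, had the smallest p of the panel. Its signal was 244.0, 195.1 and 100.5 in treated mice, against 26.4, 51.2 and 66.6 in control mice. All treated mice were above all controls, at a log2 fold change of 1.88 ± 0.53 SE.

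Vav1, a guanine nucleotide exchange factor of blood cells, had 101.7, 86.7 and 37.2 in treated mice and 20.3, 18.9 and 11.8 in control mice, with no overlap (2.00 ± 0.75 SE). Only 1 of the 3 control values of Vav1 was above background. Ptprc, the CD45 phosphatase of all leukocytes, had 837.5, 305.1 and 55.8 in treated mice, against 90.7, 53.9 and 43.1 in control mice. Mouse 1 was far above the rest and mouse 3 within the controls (2.01 ± 0.86 SE). Dock2, which activates Rac in lymphocytes, was widest, with 188.6, 120.0 and 3.72 in treated mice and 9.25, 5.39 and 3.92 in control mice, with 2 treated and 1 control value above background (2.80 ± 1.17 SE).

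Of the genes of antigen receptor signalling, 2 are given although they were picked after their values were seen: the kinase Syk had 351.3, 191.7 and 126.5 against 64.3, 102.4 and 101.8 in control mice, and the phospholipase Plcg2 135.0, 135.0 and 133.9 against 28.2, 105.1 and 101.8. The groups did not overlap in either, at 1.21 ± 0.52 and 0.99 ± 0.61 (SE). Without control mouse 1 the median of the list was 0.54, with 11 of 13 genes higher.

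Treated mouse 3 was the lowest treated mouse in 7 of 40 T and NK cell genes and in 7 of 20 macrophage genes, where it was for 25.3% of all genes. Of 40 T and NK cell genes 35 were higher, at a median log2 fold change of 0.34, but control mouse 1 was the lowest control in 37 of the 40. Without that mouse 10 of 40 were higher and the median was -0.34. Il2rg, the common gamma chain of several cytokine receptors, had 212.6, 91.7 and 37.2 in treated mice and 37.0, 24.3 and 11.8 in control mice. Treated mouse 3 was barely above control mouse 1 (1.98 ± 0.78 SE). The values of control mice 2 and 3 were below the background of their libraries, 24.6 and 29.3. The T cell co-receptor Cd4 had 99.8, 120.0 and 156.3 against 31.7, 97.0 and 117.5 in control mice (0.78 ± 0.72 SE), with mouse 3 the highest, and without control mouse 1 it was 0.21.

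Of 20 macrophage and myeloid genes 17 were higher, at a median of 0.40, and 9 were higher at a median of -0.11 without control mouse 1. Ncf1, a subunit of the phagocyte NADPH oxidase that B cells also make, had 558.3, 395.1 and 197.2 in treated mice, against 57.3, 164.3 and 137.1 in control mice. The groups did not overlap (1.68 ± 0.58 SE). Cd163, the haemoglobin scavenger receptor of resident macrophages, went the other way: 49.9, 68.4 and 44.6 in treated mice were below 89.0, 86.2 and 109.6 in control mice (-0.81 ± 0.54 SE). Traf1, an adaptor of TNF receptors and an NF-kB target, had 77.7, 43.3 and 18.6 against 18.9, 8.08 and 3.92 in control mice, 1 of which was above background (2.09 ± 0.88 SE).

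**Figure D3:**
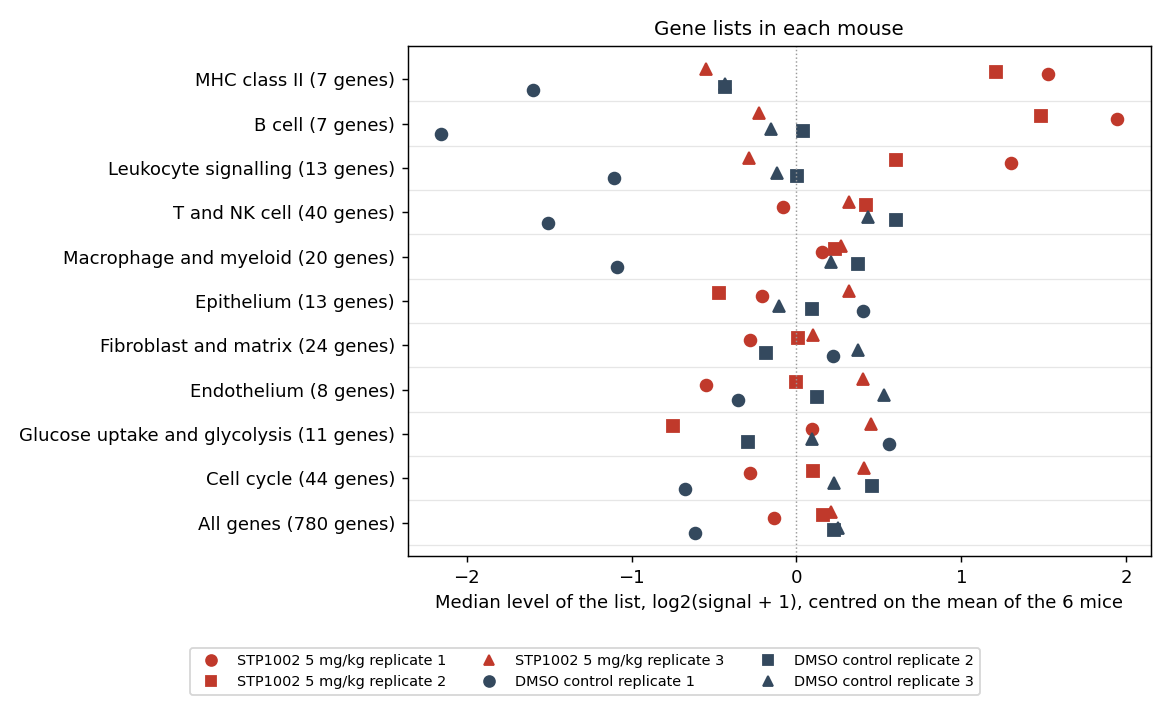
Median level of each gene list in each mouse, as log2(signal + 1) centred per gene on the mean of the 6 mice, with STP1002 5 mg/kg in red above DMSO control in blue. For MHC class II, treated mice 1 and 2 are at 1.52 and 1.21 and mouse 3 at -0.55, and for T and NK cells control mouse 1 stands alone at -1.51.

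Genes of the Wnt pathway, which the compound targets through axin, had a median near 0 that turned above 0 without 1 treated mouse. It was under the median of all genes in each setting given here, a difference that was not tested. Of the 9 measured, 3 were higher, limma called 0, and the median log2 fold change was -0.04 against 0.12 for all genes. The median was 0.07 with 6 of 9 higher without treated mouse 1, where that of all genes was 0.21. It was -0.54 with 2 higher without control mouse 1, and -0.16 with 0 higher after median-ratio rescaling. The medians of all genes there were -0.19 and -0.01. Ctnnb1, which encodes beta-catenin, had 107.2, 196.7 and 200.9 in treated mice and 206.1, 132.0 and 137.1 in control mice. The groups overlapped, and the log2 fold change of 0.06 ± 0.49 SE had a 95% interval of -0.98 to 1.10. The panel counts RNA, and the amounts of axin and beta-catenin protein were not measured.

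Within the complex that destroys beta-catenin, Apc, its large scaffold, had 314.3, 160.0 and 279.0 in treated mice, against 396.9, 188.6 and 188.0 in control mice. The kinase Gsk3b had 129.4, 136.7 and 96.7 against 171.8, 94.3 and 164.5 in control mice. Both overlapped, at 0.00 ± 0.47 and -0.21 ± 0.44 (SE). The ligand Wnt5a (0.07 ± 0.80 SE), the transcription factor Tcf7 (-0.08 ± 0.79) and the Frizzled receptors Fzd1 (0.02 ± 0.73), Fzd7 (-0.28 ± 0.47) and Fzd8 (-0.04 ± 0.73) had intervals that spanned 0. Fzd4 was 37.0, 60.01 and 96.7 in treated mice against a close 92.1, 94.3 and 97.9 in control mice (-0.65 ± 0.60 SE), so 2 treated mice were below all controls and 1 was among them.

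Of 6 Wnt target and crypt genes 1 was higher, at a median of -0.38, and limma called 0. Without treated mouse 2, the mouse with the lowest epithelial sum, 4 of 6 were higher at a median of 0.09, against 0.11 for all genes. Without control mouse 1 the median was -0.20 with 2 higher. Ccnd1, the G1 cyclin, had 820.8, 236.7 and 1209 in treated mice, against 1699, 428.4 and 603.0 in control mice. Both groups varied several-fold and overlapped (-0.30 ± 0.66 SE). Myc had -0.06 ± 0.47, Birc5, an inhibitor of apoptosis made in dividing cells, -0.64 ± 0.67, and Vegfa, the vascular growth factor, -0.46 ± 0.60 (SE).

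The proliferation marker Mki67 had 31.4, 26.7 and 14.9 in treated mice and 35.2, 43.1 and 23.5 in control mice, above background in 2 of 3 libraries of each group (-0.49 ± 0.89 SE). Cd44, a hyaluronan receptor and the 1 higher gene among the Wnt target and crypt genes, had a mean below background. With all values raised to the highest library background, 0 of the 6 were higher. Of 44 cell cycle genes 28 were higher, at a median of 0.05. This turned to 16 of 44 at -0.07 after median-ratio rescaling, 16 at -0.14 without treated mouse 3 and 9 at -0.28 without control mouse 1. Kif23, a kinesin of cytokinesis and the 1 gene lower at an unadjusted p under 0.05, was above background in 0 of 3 treated and 1 of 3 control libraries.

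**Figure D4:**
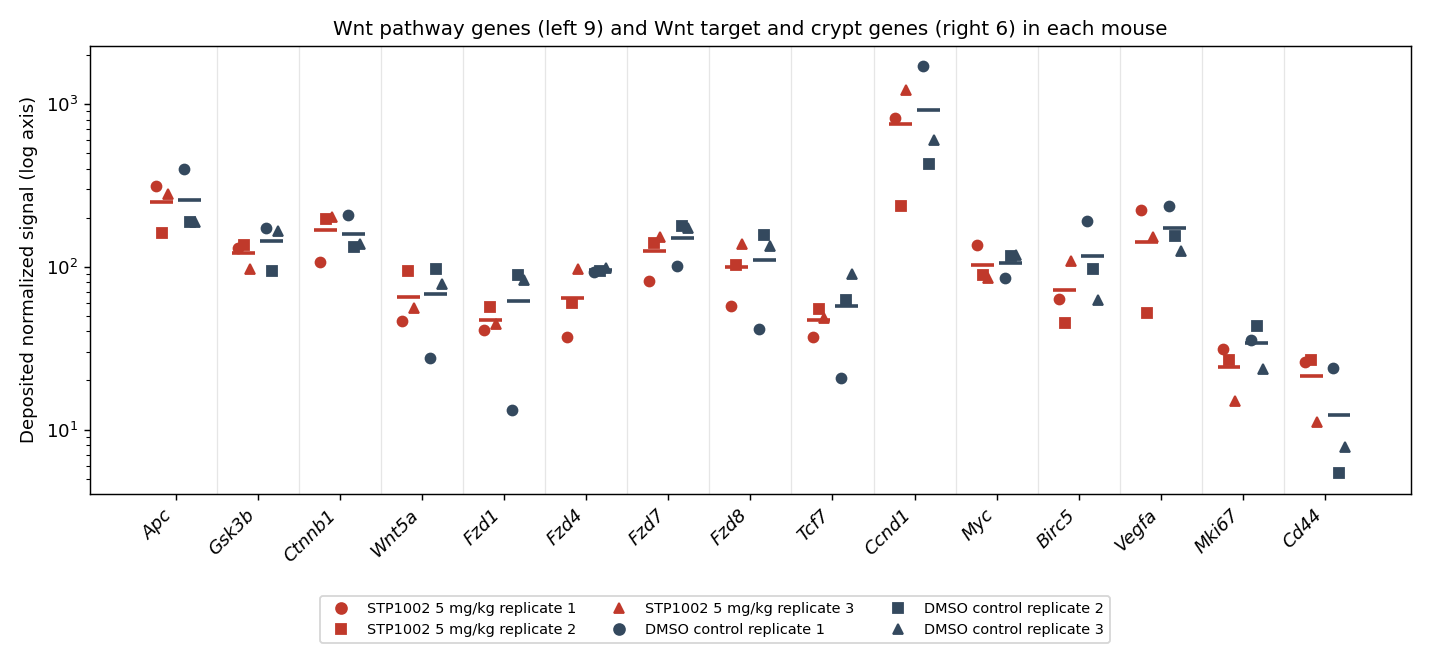
Deposited normalized signal (log axis) of 9 Wnt pathway genes and 6 Wnt target and crypt genes in each mouse, STP1002 5 mg/kg in red left of DMSO control in blue, with circles, squares and triangles for mice 1, 2 and 3 and a line at the mean. The groups overlap in all 15 genes.

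The 12 genes with the smallest p among those lower at 5 mg/kg had log2 fold changes of -1.13 to -0.57 and unadjusted limma p values of 0.0647 to 0.218. The groups did not overlap in 3 of them, against 15 of all 780 genes (1.92%) that were lower without overlap. The 12 were picked by p in these same mice, so that count is a description. Glul, glutamine synthetase, had 295.8, 251.7 and 684.5 in treated mice, against 956.3, 474.2 and 931.9 in control mice. Mice 1 and 2 were below all controls and mouse 3 among them (-1.01 ± 0.51 SE). Slc1a5, a glutamine transporter, was lower in all 3 mice, with 184.9, 160.0 and 189.7 against 381.9, 210.1 and 281.9 in control mice (-0.67 ± 0.41 SE).

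H2-K1, a classical MHC class I chain, had 25.9, 28.3 and 22.3 in treated mice and 72.2, 45.8 and 54.8 in control mice, without overlap, and 2 of the 3 treated values were above background (-1.13 ± 0.76 SE). Class I genes are close copies of each other, and how far the probe counts others was not tested. Tap2, which carries peptides to class I molecules, was higher without overlap, with 377.1, 376.8 and 822.2 against 313.2, 255.9 and 375.9 in control mice (0.65 ± 0.53 SE). Treated mice 1 and 2 were barely above control mouse 3. Over the 10 genes of class I and its processing the median was 0.08, with 7 higher. It was -0.05 with 3 higher after median-ratio rescaling and ran from -0.21 to 0.37 when 1 mouse was left out in turn, the highest without control mouse 1.

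Srebf1, a regulator of lipid synthesis, had -0.68 ± 0.48 SE, and the 5 genes of lipid metabolism were all lower, at a median of -0.35. Amino acid metabolism had 2 of 8 genes higher, at -0.24. With 1 mouse left out in turn these medians ran from -0.67 to -0.11 and from -0.60 to -0.04. Pfkfb3, which drives glycolysis through fructose 2,6-bisphosphate, had -0.79 ± 0.54 SE, whereas the glucose carrier Slc2a1 was higher without overlap, with 101.7, 90.0 and 148.8 against 86.3, 78.1 and 86.1 in control mice (0.41 ± 0.47 SE). Limma called 0 genes of these 3 groups.

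The others of the 12 were Erbb3, a receptor tyrosine kinase of epithelia (-0.89 ± 0.62 SE), Myd88, the adaptor of Toll-like receptors (-0.67 ± 0.49), Eif4ebp1, a brake on translation (-0.79 ± 0.59), the receptor kinase Mst1r (-0.64 ± 0.50), the microfibril protein Fbn1 (-0.57 ± 0.44) and the antiviral enzyme Oas1a (-1.13 ± 0.89). Control mouse 1 carried 3 of these: without it Eif4ebp1 had -0.26, Mst1r -0.11 and Oas1a -0.05. Oas1a had 25.9, 15.0 and 37.2 in treated mice, against 251.5 in control mouse 1 and 16.2 and 39.2 in the other control mice.

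**Figure D5:**
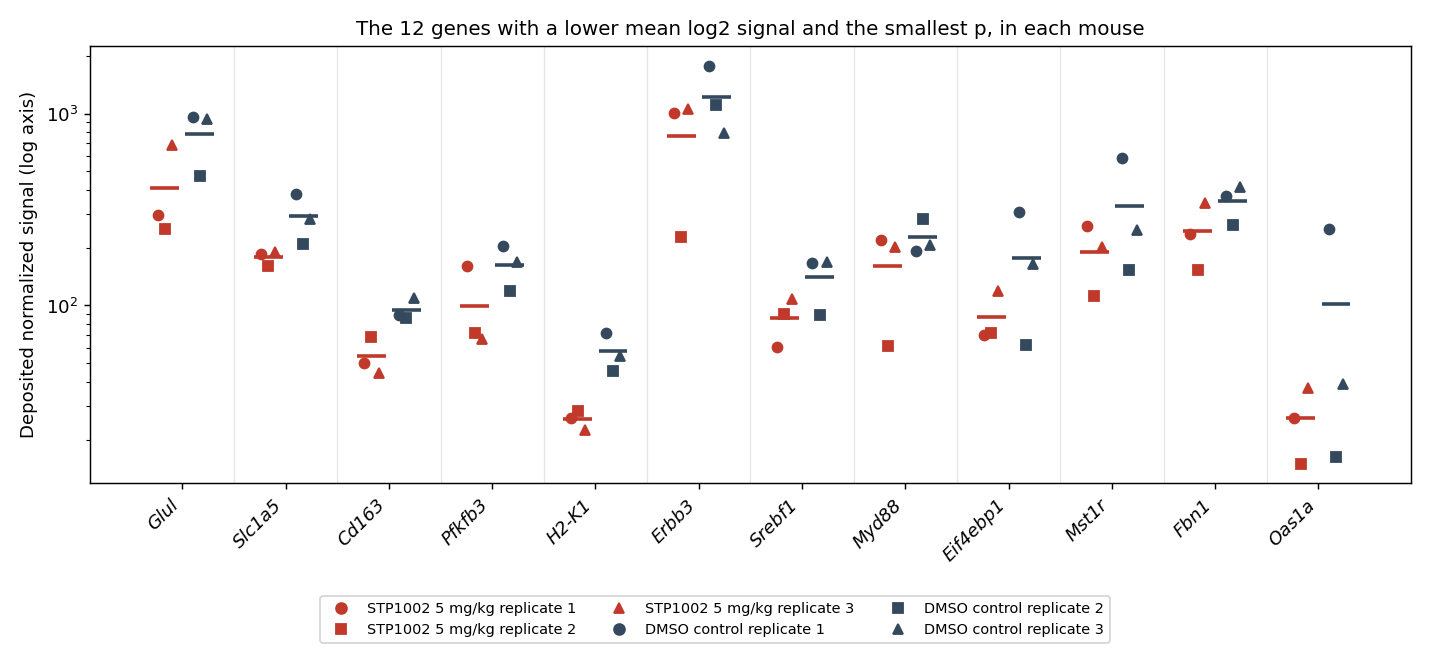
Deposited normalized signal (log axis) in each mouse of the 12 genes with the smallest p among those lower with STP1002 5 mg/kg (red, left) than with DMSO (blue, right), with circles, squares and triangles for mice 1, 2 and 3 and a line at the mean. The groups are apart for Slc1a5, Cd163 and H2-K1 and overlap in the other 9. Over all genes 1.92% were lower without overlap, and the 12 were picked by p in these mice.

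Epithelial genes were lower in 10 of 13, at a median log2 fold change of -0.34, or -0.05 with 6 higher when control mouse 1 was left out and -0.09 with 4 higher without treated mouse 2. Treated mouse 2 was below every control in 10 of the 13, against 16.0% of all genes, and its summed signal over the list was the lowest of the 6 mice. These sums were 10649, 2787 and 16064 in treated mice 1 to 3 and 11384, 7802 and 4926 in control mice. Erbb3 had 228.4 in mouse 2, against 1004 and 1060.3 in mice 1 and 3 and 791.0 to 1774 in control mice. In 3 of the 13 the groups did not overlap and treated mice were lower, against 1.92% of all genes. The list was chosen with earlier results of these data known, so that count is a description. Among the 3, the proteoglycan Sdc1 had 46.2, 46.7 and 37.2 against 70.9, 51.2 and 78.3 in control mice (-0.60 ± 0.60 SE).

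Sfn, the epithelial 14-3-3 sigma, is a member that carries much of the signal in these sums, and had 7458, 1169 and 10740.4 in treated mice, against 4976, 4087 and 2052 in control mice. The smooth muscle genes, picked after their values were seen, were highest in mouse 2: Actg2 (297.6, 1315 and 186.0 against 434.3, 140.1 and 340.7) and Myl9 (922.5, 3646 and 822.2 against 1363, 452.6 and 1319.6 in control mice). By summed signal mouse 2 had the least epithelial signal of the treated mice, with the most Actg2 and Myl9 and with high class II and B cell signal. It was the lowest treated mouse in 6 of 13 epithelial genes, against 23.1% of all genes. Mouse 1, with the highest summed class II and B cell signal, had an epithelial sum of 10649, within the range of the control mice. The part of such tissue content in the differences above was not tested.

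Of 24 genes of fibroblasts and matrix 8 were higher (median -0.12), with endothelial genes higher in 3 of 8 (-0.12), interferon response genes in 14 of 22 (0.19), cytokine, chemokine and NF-kB genes in 30 of 40 (0.22) and chromatin regulators in 16 of 17 (0.28). Without control mouse 1 interferon response genes were higher in 7 of 22 (-0.30), the cytokine list in 14 of 40 (-0.26), chromatin regulators in 8 of 17 (-0.14) and endothelial genes in 0 of 8 (-0.35). All 4 genes of the germ line and other organs were higher too (0.41), with control mouse 1 the lowest control in each, and without it their median was -0.47. The 3 usual reference genes of high signal, Oaz1, Ubb and Dnajc14, had -0.12 ± 0.47, -0.14 ± 0.43 and 0.26 ± 0.44 (SE).

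The lower dose was also set against the higher one, in the same fit. Limma called 0 of 780 genes (0.0%) between 5 and 10 mg/kg, with a smallest adjusted p of 0.654, and 18 genes (2.31%) had an unadjusted limma p under 0.05, 8 higher (1.03%) and 10 lower (1.28%) at 5 mg/kg. The median log2 difference, 5 minus 10 mg/kg, was -0.56 as deposited, and median-ratio rescaling brought it to -0.01. For the class II genes these differences ran from -0.69 to 0.80 and for the B cell genes from -0.95 to 0.59. H2-Eb1 had 1734, 1829 and 639.9 at the lower dose, against 1401, 1067 and 1270.0 at the higher, a difference of 0.03 ± 0.53 SE. Both doses are compared with the same control mice, so a likeness of their fold changes is not independent.

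Actg2 and Myl9, the smooth muscle genes, had differences of 1.54 ± 0.60 and 1.30 ± 0.58 (SE), and mouse 2 at 5 mg/kg carried the highest value of both.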

How the data were processed

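Per the labels' protocols, RNA was extracted from ileum with a MasterPure kit, kept at an RNA integrity number above 7.0 and counted on a panel of 760 tumour-related and 20 housekeeping genes. The authors deposited a linear normalized signal for 780 genes with 8 negative and 6 positive control probes. Their software and normalization are not given in the sources used here, and the table does not mark housekeeping genes. From the values, gene signal is a whole count times 1 step per library. Limma 3.58.1 in R 4.3.3 was fitted to log2(signal + 1) of 12 libraries in 4 groups, with a trended eBayes, Benjamini-Hochberg adjustment over 780 genes and calls at 0.05, two-sided, unfiltered. Fold changes are on that scale, and those of genes with values near background depend on how low values are treated. With all values raised to at least the highest library background (a common background floor), Blk went from 2.59 to 0.26. Vav1 went from 2.00 to 0.80. Such fold changes can thus be too large as well as too small. Background was the mean plus 2 SD of negative controls, times the step. A gene was low if its mean over the 6 libraries was below their mean background of 21.6 (105 genes). The main fit was checked on simulated counts with known differences. These had the same dispersion for all genes and no differences in tissue content between mice, so the check does not show how the fit performs on mice that vary as these do.

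Genes named are the 12 with the smallest p in each direction among those not low, the members of the MHC class II, B cell and Wnt lists, up to 4 of each other list with the smallest p, and 3 reference genes. Members and lists were chosen with earlier results of these data known. Grap2, Syk, Plcg2, Actg2, Myl9, Sfn, Spint2, Spint1, Rictor under array weights and Sh3pxd2a were taken after their values were seen. A few genes are not reported here. Alternatives changed scaling, pseudocount, background, filter, libraries, block and weights.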

Additional observations from a re-analysis of the deposited data

Results flagged for a closer look

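Cd163 was flagged because it lay on opposite sides of the control mice at the 2 doses of STP1002. Its signal was 89.0, 86.2 and 109.6 in control mice 1 to 3, 49.9, 68.4 and 44.6 in the 5 mg/kg mice, and 109.9, 166.9 and 134.4 in the 10 mg/kg mice. The log2 difference, 5 minus 10 mg/kg, was -1.32 ± 0.54 SE, and limma did not call it (adjusted p = 0.654). The median difference of all genes was -0.56 as deposited and -0.01 after median-ratio rescaling. All 3 mice at 5 mg/kg were below, and all 3 at 10 mg/kg above, every control. Of the 780 genes 2 had this arrangement, the other being Sh3pxd2a, a scaffold of invasive cell protrusions (-1.21 ± 0.62 SE). Sh3pxd2a was named after its values were seen. In Cd163 the margin at 10 mg/kg was thin, with 109.9 in mouse 1 against 109.6 in control mouse 3. In those libraries 1 count was worth 1.34 and 3.92, in that order.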

How the results depend on the processing

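With 3 mice a group and depth uneven between libraries, the unadjusted 95% interval of a typical gene reached 1.42 to each side on the log2 scale, and values near background rest on few counts. Of 84 genes followed, every gene given a fold change above among them, 60 kept their sign under all 18 alternatives run for them, 24 did not, and 17 were called under at least 1. Array weights called 17 genes against DMSO, all higher (Rictor and 16 of the 17 with an unadjusted p under 0.05), and 388 between the doses, but gave 10 mg/kg mouse 3 a weight of 47.6 in a fit that did not converge. Without the 2 deepest libraries (control mouse 1 and G007-LK mouse 1) 3 genes were called, Ptprc, Dock2 and H2-Ab1. All other alternatives called 0, with 2 (positive-control scaling) to 29 genes against DMSO at an unadjusted limma p under 0.05. Genes whose groups did not overlap numbered 4 with positive-control scaling and 207 without the 2 deepest libraries. They numbered 63 to 207 when 1 mouse was left out, which leaves fewer mice to overlap. Of 2 alternatives chosen after seeing the data, median-ratio rescaling without control mouse 1 gave 192 and without STP1002 5 mg/kg mouse 3 gave 123, both with 0 calls. A replicate block in the fit left 0 calls, and 28 genes had an unadjusted p under 0.05. Deviations of same-numbered mice correlated at 0.364, 0.242 and 0.0276, so the numbers were not taken to pair mice. Planned count tests by edgeR and DESeq2 were not run.

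Signs turned as follows, on the log2 scale, and the cause was not tested. Array weights gave Tnfrsf17 -0.40, Apc 0.23, Wnt5a -0.31 and Fzd1 -0.70. A common background floor gave Tnfrsf17 -0.12, Wnt5a -0.11, Fzd1 -0.50 and Rictor -0.0614. Median-ratio rescaling gave Ctnnb1 -0.0694, Wnt5a -0.0579 and Fzd1 -0.10. That rescaling without control mouse 1 gave Mst1r 0.0846, Oas1a 0.14, Tnfrsf17 -0.30, Apc 0.55, Gsk3b 0.14, Wnt5a -0.29, Fzd1 -0.66, Ccnd1 0.48, Spint2 0.23, Oaz1 0.35 and Ubb 0.0932. Without treated mouse 3 it gave Ctnnb1 -0.18, Fzd1 -0.021, Sfn -0.31 and Dnajc14 -0.20. Positive-control scaling gave Tnfrsf17 -0.0184, Ctnnb1 -0.22, Wnt5a -0.20, Fzd1 -0.23 and Dnajc14 -0.020. A pseudocount of 10 gave Fzd1 -0.0659. Quantile normalization gave Tnfrsf17 -0.0088, Apc 0.020, Wnt5a -0.16 and Fzd1 -0.13. Omission of the 2 deepest libraries gave Tnfrsf17 -0.49, Apc 0.36, Wnt5a -0.48, Fzd1 -0.85, Ccnd1 0.28, Spint2 0.0385 and Oaz1 0.15. With 1 mouse left out in turn, values ran as follows: Actg2 -0.22 to 1.18, Apc -0.19 to 0.36, Car9 -1.12 to 0.22, Ccnd1 -0.78 to 0.39, Ctnnb1 -0.0937 to 0.36, Dnajc14 -0.12 to 0.53, Fzd1 -0.85 to 0.48, Fzd7 -0.54 to 0.0024, Fzd8 -0.63 to 0.32, Hk2 -1.48 to 0.14, Myc -0.27 to 0.059, Myl9 -0.10 to 0.97, Oaz1 -0.45 to 0.17, Sfn -0.23 to 1.37, Spint2 -1.03 to 0.21, Tcf7 -0.68 to 0.35, Tnfrsf17 -0.49 to 0.69, Vegfa -0.89 to 0.15 and Wnt5a -0.48 to 0.42.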
